A study of Mus musculus with 37 samples.

Results

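The collagen genes were taken as every row of the count table whose symbol has the form Col, a type number, the letter a and a chain number, which gave 44 of 24421 genes. Of these, 11 encode chains of fibrillar collagens (types I, II, III, V, XI, XXIV and XXVII), 10 encode chains of basement membrane and anchoring collagens (types IV, VII, XV, XVII and XVIII), and 23 encode chains of other types, such as the beaded filaments of type VI. The rule uses gene names alone, and the set was taken up with earlier results of these data known. At least 1 count was present for all 44 in the 37 libraries together.

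Collagens are triple helices assembled from alpha chains, each the product of its own gene, and they are the main structural proteins of the extracellular matrix. In the urinary tract, fibroblasts and smooth muscle cells lay down fibrils of types I and III in the lamina propria and muscle wall. Type IV forms the network of the basement membrane under the urothelium and around vessels and muscle cells. Type VII forms the anchoring fibrils below an epithelial basement membrane, and type XVII is a transmembrane collagen of hemidesmosomes in basal epithelial cells.

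All mice were female, of the BALB/c strain and wild-type genotype, and WTS was made from ureter-side tissue and bladders. BBN, N-butyl-N-(4-hydroxybutyl) nitrosamine, is a carcinogen of the urothelium, and it was given for 18 weeks in the treated groups. UT came from the side with cancer in the upper tract of mice given BBN (11 libraries from 10 mice, since mouse 5 gave both sides), and UN was the side without cancer (7 libraries, each with a UT library of the same mouse). U was the ureter of mice given tap water without BBN, called untreated here (6 libraries, both sides of 3 mice). The same 3 mice gave the untreated bladders, which makes 3 libraries. BBN bladder was the bladder of BBN mice (10 libraries). The library name of BBN bladder 6 carries a T while its title does not, and it was kept in this group. Treated and untreated mice shared strain and sex, and the labels give no age. These were pieces of whole tissue, so p-values measure the spread between libraries, and in U that spread includes the sides of 1 mouse.

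The libraries held 3557553 to 18793434 counts. The 4 with the fewest counts, called shallow here (UN 6 and BBN bladders 1, 3 and 4), were also those with the lowest RNA integrity listed by the study. Levels are given as CPM, counts scaled to a common library size, with TMM scaling over all 37 libraries (factors 0.571 to 1.31), unless percent of counts is stated. Compared with CPM by library totals alone, the scaling moved the median log2 ratio of the tested genes by -0.27 in UT against U, by 0.21 in BBN against untreated bladder and by 0.31 in U against untreated bladder. In these bulk samples fewer cells of a type and less RNA per cell cannot be told apart.

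The sequences before the RefSeq starts of 4 collagen genes named in the results are shown first: Col17a1 and Col7a1, and the fibrillar Col3a1 and Col1a2. They come from RefSeq on GRCm38.p6, which held entries for 35 of the 44 members, and Col1a1 had none. Each covers the 250 bases before the RefSeq start, less any base that lies in an annotated exon of GENCODE. Capitals mark TATAAA (the TATA box), CCAAT (the CCAAT box) or GGGCGG (the core of a GC box) on either strand. Col17a1 lies on the minus strand at chr19:47692095-47692292, Col7a1 on the plus strand at chr9:108953336-108953585, Col3a1 on the plus strand at chr1:45311288-45311537 and Col1a2 on the plus strand at chr6:4505370-4505492. The RefSeq and GENCODE starts of Col1a2 differ, and the stretch shown lies inside the GENCODE gene (4504814 to 4541544), between its annotated exons. Those of Col17a1 differ as well. Its last base shown lies 53 bases before the RefSeq start and next to the GENCODE start (47692094). Positions below count from the RefSeq start.
Col17a1: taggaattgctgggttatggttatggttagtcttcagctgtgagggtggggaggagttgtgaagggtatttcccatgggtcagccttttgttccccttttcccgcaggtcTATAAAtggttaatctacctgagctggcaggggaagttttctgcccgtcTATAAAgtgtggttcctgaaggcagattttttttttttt
Col7a1: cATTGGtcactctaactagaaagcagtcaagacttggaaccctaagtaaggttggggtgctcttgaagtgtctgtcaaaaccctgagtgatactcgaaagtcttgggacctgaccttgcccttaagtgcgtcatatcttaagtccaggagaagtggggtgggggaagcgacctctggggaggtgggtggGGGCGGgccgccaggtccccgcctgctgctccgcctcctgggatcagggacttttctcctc
Col3a1: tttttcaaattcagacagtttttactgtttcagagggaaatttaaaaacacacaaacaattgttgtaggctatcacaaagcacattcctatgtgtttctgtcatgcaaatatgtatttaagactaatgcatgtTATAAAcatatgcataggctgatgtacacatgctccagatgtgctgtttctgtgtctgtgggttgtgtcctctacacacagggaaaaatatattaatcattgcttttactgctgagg
Col1a2: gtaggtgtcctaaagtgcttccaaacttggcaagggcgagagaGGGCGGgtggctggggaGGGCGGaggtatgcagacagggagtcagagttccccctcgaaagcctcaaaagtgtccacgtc

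In the stretch before Col17a1, TATAAA was found at 140 to 135 and at 91 to 86 bases before the start, and in that of Col3a1 at 117 to 112 bases. TATAAA was present in the 250-base windows of 12.4% of all 32851 promoter entries and in 5 of the 38 entries of collagen genes (13.2%). GGGCGG was found before Col7a1 at 61 to 56 bases and before Col1a2 at 205 to 200 and 188 to 183 bases. It was present in 32.7% of all entries and in 22 of the 38 collagen entries (57.9%). CCAAT was found on the minus strand before Col7a1 at 249 to 245 bases, and in the parts of the windows not shown before Col1a2 (109 to 105 bases) and Col17a1 (31 to 27 bases, minus strand). It was present in 33.8% of all entries and 34.2% of the collagen entries. TGANTCA, the letters of an AP-1 site, was not in these 4 windows and was in 6.75% of all entries and 2.63% of the collagen entries. None of these motifs overlapped another in the stretches shown, and a match is only a match of letters.

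Collagen genes together took 0.0509% to 0.657% of the counts of a library. In UT the lowest, median and highest shares were 0.129%, 0.279% and 0.642%, in UN 0.0614%, 0.159% and 0.463%, and in U 0.0782%, 0.224% and 0.288%. In BBN bladder they were 0.0509%, 0.107% and 0.460%, and the untreated bladders had 0.452%, 0.490% and 0.657%. The untreated bladders thus had the highest median, and BBN bladder 2 was the one BBN bladder within their range. U 3L (0.0782%) had a lower share than every other U library (next 0.22%), and its adipocyte marker sum was the highest of U at 58971 CPM.

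**Figure D1:**
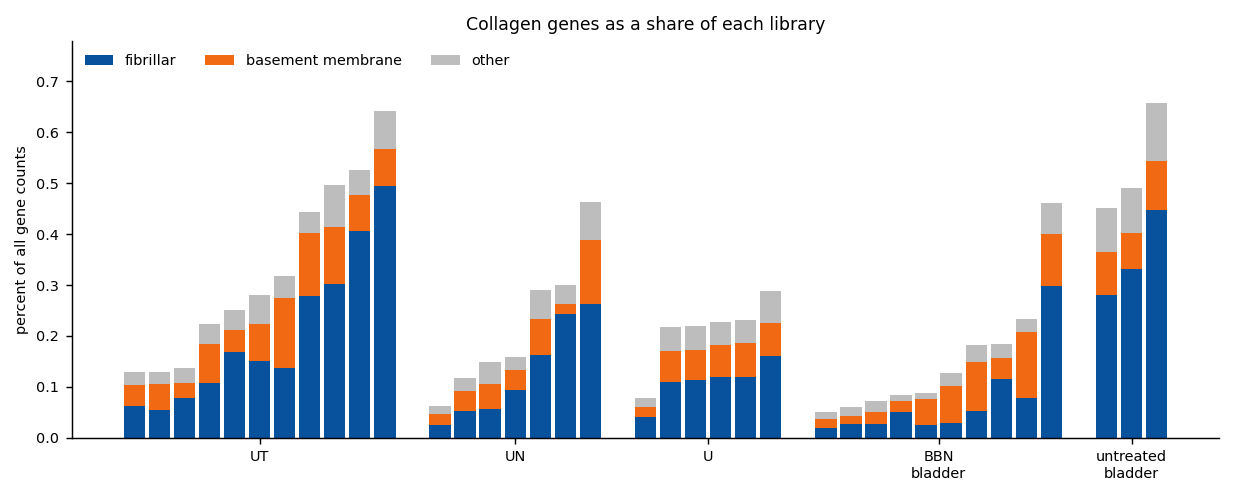
Stacked bars show the percent of all gene counts (y axis) that fell on fibrillar, basement membrane and other collagen genes in each of the 37 libraries, sorted within the 5 groups (x axis). The 3 untreated bladders reached 0.452% to 0.657%, and 9 of the 10 BBN bladders stood below them.

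Per kilobase of exon, Col3a1 had the highest mean of all collagen genes in each of the 5 groups, at 102 CPM per kb in UT, 85 in UN, 76.8 in U, 36.55 in BBN bladder and 151 in untreated bladder. The genes ranked next differed by group. In UT they were Col1a1 (41.5 CPM per kb), Col4a1 (35.8) and Col1a2 (32.7). In U they were Col4a1 (47.1), Col6a1 (37) and Col4a2 (20.1), with Col1a1 at 16.4. Without UT 2, the highest library, Col1a1 stood at 29.1 CPM per kb, behind Col4a1 at 37.1. In BBN bladder Col17a1 came second at 32.6 CPM per kb, ahead of Col4a1 at 16.2. The first place of Col3a1 there rested on BBN bladder 2, without which Col17a1 led at 32.2 CPM per kb and Col3a1 followed at 25. In untreated bladder Col1a1 (93.3) and Col1a2 (69.2) followed Col3a1. The length used was that of all annotated exons of a gene merged, 12426 bases for Col1a2 and 6563 for Col1a1. By mean CPM without the length, Col1a2 was above Col1a1, at 406 against 273 in UT and 860 against 612 in untreated bladder. The order of both genes thus depended on the length. Several members were near the detection limit, and Col2a1, the cartilage fibril chain, had 5 counts in all 6 U libraries and Col26a1 had 4.

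Fibrillar share also varied. Fibrillar chains made up 42.8% to 77.3% of the collagen counts in UT (median 56.3%), 37.8% to 80.7% in UN (55.8%) and 50.2% to 55.8% in U (51.7%). In BBN bladder they made up 22.1% to 64.8% (37.1%) and in untreated bladder 62.1%, 67.9% and 68.3%. The basement membrane class took 22% to 58.7% of the collagen counts in BBN bladder, above the 14.4% to 18.85% of untreated bladder. In counts per gene, Col3a1 was 2.19 to 2.70 times Col1a1 in untreated bladder, 5.55 to 12.5 times in U and 1.81 to 9.74 times in UT, so these 2 fibril genes were not held at a fixed ratio.

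**Figure D2:**
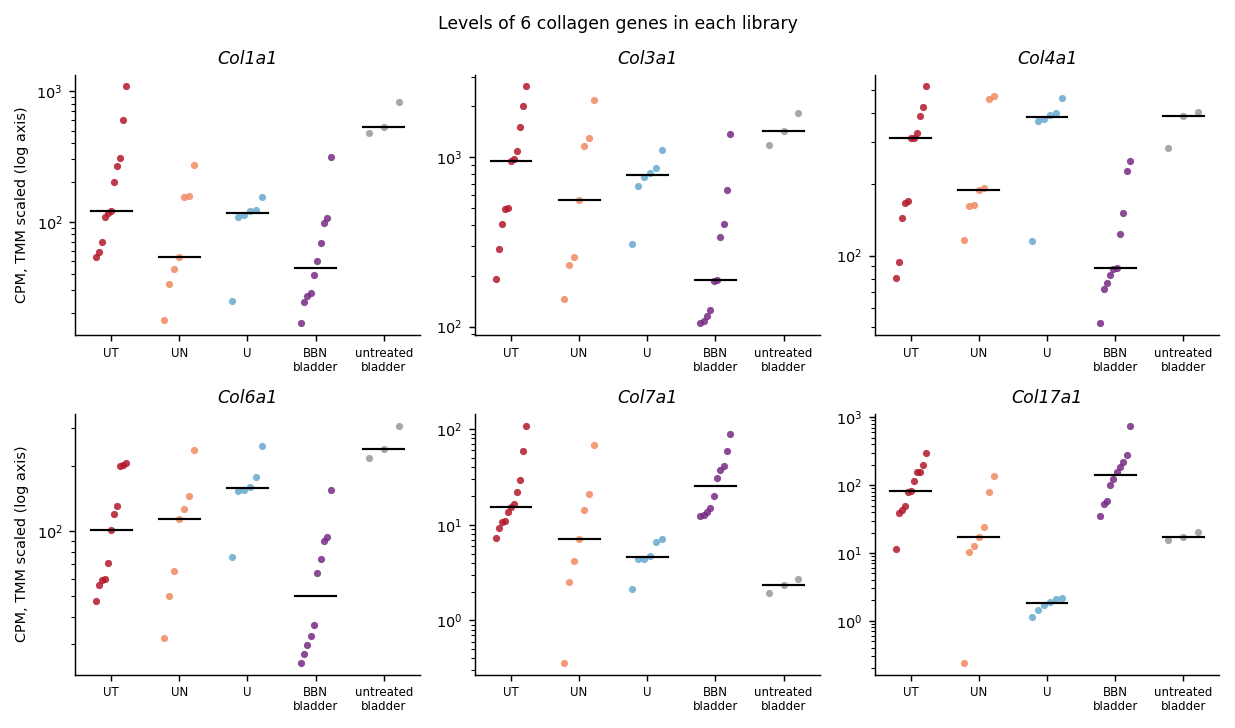
Points show TMM-scaled CPM (y axis, log scale) of 6 collagen genes in every library of the 5 groups (x axis), sorted within a group, with a line at the median. Col17a1 was at most 2.13 CPM in U and at least 11.5 CPM in UT, whereas Col1a1, Col3a1 and Col6a1 were highest by median in untreated bladder.

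UT was compared with U to ask which collagen genes differ between the cancer side and untreated ureter. A gene was called when its levels differed by a factor of 2 or more with an edgeR FDR below 0.1. Of 37 collagen genes that passed the filter on low counts, 8 were called higher and 4 lower, beside 18.7% and 12.5% of all 15357 genes tested. The median log2 fold change was 0.41 over these 37 and 0.11 over all genes tested, but with voom it was -0.079 and 0.042, so neither its sign nor its order held. Without TMM scaling, 11 were higher and 4 lower, beside 24.9% and 8.81%. By class, 3 of 10 fibrillar members were higher and 0 lower, 3 of 10 basement membrane members were higher and 1 lower, and 2 of 17 other members were higher and 3 lower. CPM ranges did not overlap for 3 members that were higher (Col17a1, Col12a1 and Col7a1, beside 9.27% of all genes) and for 2 that were lower (Col19a1 and Col23a1, beside 8.44%).

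Col17a1 (chromosome 19, 47646344 to 47692094), the hemidesmosomal collagen, differed most. It was 11.5, 81.5 and 296 CPM in UT (lowest, median, highest) and 1.15, 1.79 and 2.13 CPM in U. Every UT library was above every U library, and the log2 fold change was 5.98 ± 0.65 (SE; edgeR FDR 5.9e-06). Col7a1, the anchoring fibril chain on chromosome 9 (108953586 to 108984875), was 7.31, 15.4 and 109 CPM in UT and 2.14, 4.55 and 7.09 CPM in U. Its ranges also stood apart, with UT 9 lowest in both genes, and it rose by a log2 fold change of 2.48 ± 0.59 (edgeR FDR 0.0023). Col4a6, a type IV chain of epithelial and smooth muscle basement membranes, rose by 1.74 ± 0.78 (edgeR FDR 0.0713) at a median of 0.838 CPM in UT and 0.331 CPM in U, with 1 UT library at 0.

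Of the chains that decorate or bridge fibrils, Col12a1 (type XII) rose by a log2 fold change of 2.05 ± 0.29 (edgeR FDR 4.18e-05), from 14, 25.3 and 33.3 CPM in U to 46.0, 93.4 and 169 CPM in UT. Col8a1, a short-chain network collagen, rose by 2.27 ± 0.53 (edgeR FDR 0.00193), from 5.97, 6.76 and 11.1 CPM in U to 10.8, 22.7 and 134 CPM in UT. The ranges of Col8a1 overlapped only narrowly, since the lowest UT library (UT 5R, 10.8) was just under the highest U library (11.1). Col11a1, a minor fibril chain, rose by 2.07 ± 0.70 (edgeR FDR 0.0197) at a median of 1.63 CPM in UT and 0.504 CPM in U. Its call was lost with RNA integrity as a covariate (log2 1.48, edgeR FDR 0.119) and with 1 sum per mouse (log2 2.11, edgeR FDR 0.111).

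The main fibril genes were less uniform. Col1a1 (chromosome 11, 94936224 to 94953042) was 53.7, 121 and 1090 CPM in UT and 24.7, 118 and 154 CPM in U. The medians were close, and the log2 fold change of 1.33 ± 0.63 (edgeR FDR 0.0858) stood beside UT 2 (1090 CPM) and UT 10 (601 CPM) as the highest libraries and U 3L (24.7 CPM) as the lowest. Col1a2 was 138, 259 and 1316 CPM in UT and 81.0, 209 and 254 CPM in U, a log2 fold change of 1.04 ± 0.42 (edgeR FDR 0.0485). Col3a1 was 192, 947 and 2623 CPM in UT and 309, 785 and 1103 CPM in U, and its log2 fold change of 0.41 ± 0.48 was not called (edgeR FDR 0.49). Leaving out any one of UT 2, UT 8, UT 10, U 1R, U 1L, U 2L, U 3R or U 3L ended the call of Col1a1 (log2 0.82 to 1.36), and leaving out UT 2, UT 7, UT 10 or U 3L ended that of Col1a2 (0.68 to 0.9985). Both calls were also lost with 1 sum per mouse (edgeR FDR 0.225 for Col1a1 and 0.156 for Col1a2), with RNA integrity as a covariate (log2 0.82 and 0.83, edgeR FDR 0.399 and 0.188) and with voom (log2 0.84 and 0.81). That of Col1a1 was further lost without the filter on low counts, in the fit of all 37 libraries and without BBN mice 8 to 10 (edgeR FDR 0.106 to 0.151). The call of Col4a6 was lost without UT 1, UT 5L, U 1L, U 2R, U 2L or U 3R (1.45 to 1.67), with 1 sum per mouse (edgeR FDR 0.274), with RNA integrity as a covariate (edgeR FDR 0.16) and with voom (log2 0.82).

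Col4a1 and Col6a1, of the network and beaded filament collagens, were not called. Col4a1, a ubiquitous type IV chain, was 80.6, 313 and 516 CPM in UT and 116, 384 and 460 CPM in U (log2 fold change -0.40 ± 0.37, edgeR FDR 0.383). Col6a1 was 47.4, 101 and 208 CPM in UT and 75.6, 158 and 248 CPM in U (log2 fold change -0.51 ± 0.34, edgeR FDR 0.219). The UT and U ranges overlapped widely in both genes.

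Col23a1 (chromosome 11, 51289920 to 51583918), a transmembrane collagen, fell most. It was 27.2, 50.9 and 53.4 CPM in U and 0.359, 1.96 and 6.71 CPM in UT, with no overlap, and the log2 fold change was -4.25 ± 0.47 (edgeR FDR 6.55e-06). Col19a1, a fibril-associated chain, fell from 2.27, 3.05 and 3.69 CPM in U to 0.120, 0.512 and 1.68 CPM in UT (-2.26 ± 0.48, edgeR FDR 0.00105). Col15a1, of vascular and muscle basement membranes, fell by a log2 fold change of 1.44 ± 0.42 (edgeR FDR 0.00846) and Col20a1 by 1.37 ± 0.41 (edgeR FDR 0.0105). Markers of other cells moved with the same contrast. All 4 adipocyte markers were lower in UT (summed 24.2 to 26994 CPM against 33244 to 58971 in U), 4 of 5 smooth muscle markers were lower (203 to 1934 against 1845 to 3210 CPM) and all 4 leukocyte markers were higher (521 to 3093 against 348 to 710 CPM), while 0 of 5 fibroblast markers were called (134 to 2748 against 1409 to 2026 CPM). Of 5 urothelial markers (summed 397.5 to 3546 against 1077 to 2026 CPM), Krt5 of basal cells was higher by 2.998 ± 0.53 (edgeR FDR 0.000244), and Upk1a and Upk2 of umbrella cells were lower by 4.36 ± 0.60 and 1.98 ± 0.61 (edgeR FDR 3.61e-05 and 0.0124). All 4 endothelial markers were negative, with Kdr called lower (log2 -1.55 ± 0.55, edgeR FDR 0.0268). Of 2 skeletal muscle markers tested 1, Ckm, was called lower (-3.71 ± 0.65, edgeR FDR 0.000228). The part of these cell types in the collagen differences was not tested. UT 4 held the highest Col4a3 (94.8 CPM) and Col4a4 (34.3 CPM) of all libraries together with the highest kidney tubule marker sum (1790 CPM, against at most 59.8 CPM in any other library), and neither gene was called.

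**Figure D3:**
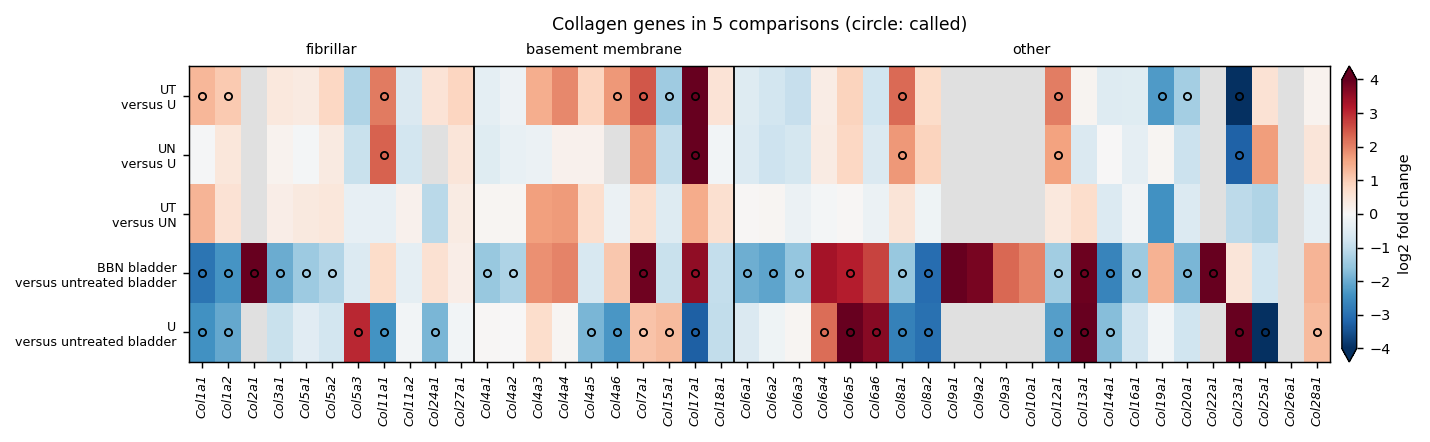
Colours show the edgeR log2 fold change of each of the 44 collagen genes (columns, by class) in 5 comparisons (rows), with grey for genes that did not pass the filter on low counts and circles for genes called. The rows against U have 8 and 4 called members that were higher, the row of UT against UN has no circle, and the BBN bladder row has 16 called members that were lower.

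UN was compared with U to ask what differed on the side without cancer. Of 35 collagen genes tested, 4 were higher and 1 was lower, beside 10.5% and 2.54% of all 14880 genes. The median log2 fold change was 0.0042 over these members and 0.078 over all genes, and with voom it was -0.302 and -0.026. This comparison shares the 6 U libraries with the one before, so the values are given side by side and not as a second test.
Col17a1 was 0.240, 17.2 and 135 CPM in UN, a log2 fold change of 4.49 ± 0.89 over U (edgeR FDR 0.00875). In 6 of 7 UN libraries it was above every U library, and the exception, UN 2, was below all of them. In UN 2 the urothelial marker sum was 13.5 CPM, against 668 to 2988 CPM in the other UN libraries, with none of its 5 markers at 0, and its leukocyte sum was the highest at 7884 CPM. Col7a1 was 0.361, 7.15 and 67.8 CPM in UN and missed the call at 1.77 ± 0.77 (edgeR FDR 0.145), but it was called by DESeq2 on all libraries (log2 1.76, adjusted p 0.0678) and without UN 2, UN 6 or UN 9 (log2 1.94 to 1.996). Col11a1 rose by 2.35 ± 0.67 (edgeR FDR 0.0383), and its highest values were 9.09 CPM in UN 6 and 0.919 CPM in U. It was not called in the fit of all 37 libraries (edgeR FDR 0.148).

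Col8a1 rose by a log2 fold change of 1.75 ± 0.46 (edgeR FDR 0.0265), with 5.33, 18.5 and 57.2 CPM in UN. Col12a1 rose by 1.62 ± 0.42 (edgeR FDR 0.0266), with 26.0, 52.4 and 205 CPM in UN. UN 6 was lowest in both genes, below the U range for Col8a1 and within it for Col12a1, and UN 1 was within the U range for Col8a1. Col23a1 was 2.05, 3.64 and 13.1 CPM in UN and fell by a log2 fold change of 3.22 ± 0.38 (edgeR FDR 0.00134). It was the one member without overlap in this comparison, beside 1.71% of all genes, and 0 members were higher without overlap, beside 2.34%.

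The main structural genes did not move past the spread. Col1a1 was 17.6, 53.2 and 272 CPM in UN (-0.05 ± 0.55, edgeR FDR 0.965), Col3a1 146, 558 and 2179 CPM (0.15 ± 0.55, edgeR FDR 0.882), Col4a1 116, 189 and 469 CPM (-0.49 ± 0.37, edgeR FDR 0.386) and Col6a1 32.0, 114 and 239 CPM (-0.56 ± 0.38, edgeR FDR 0.348). UN 6, a shallow library, was lowest in all 4 of these genes. With the counts of both ureters of an untreated mouse summed, so that U became 3 sums, 0 members were called higher and 1, Col23a1, lower, and of all 15609 genes in that fit 2 were higher and 2 lower. The log2 fold changes of the 4 members that lost their calls there were 4.47 for Col17a1, 2.38 for Col11a1, 1.75 for Col8a1 and 1.59 for Col12a1. Without UN 6 the counts were 5 higher and 4 lower, beside 10.2% and 3.68% of all genes, and without UN 9 they were 5 and 3, beside 12.2% and 4.65%. Leukocyte markers were higher here too (2 of 4 called, summed 632 to 7884 CPM in UN), and 0 of 4 adipocyte markers were called (5989 to 57464 CPM). Of the urothelial markers Krt5 was higher (log2 2.34 ± 0.89, edgeR FDR 0.0989) and Upk1a lower (-2.51 ± 0.69, edgeR FDR 0.0322), and the part of these cells was not tested.

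UT was compared with UN to ask what distinguished the cancer side from the other side of BBN mice. By edgeR, 0 of 37 collagen genes were called in either direction, beside 0% of all 15151 genes, of which 2806 had an unadjusted p under 0.05 (1 of them a collagen gene). DESeq2 called 207 genes higher and 415 lower, with 0 collagen genes higher and 1 lower, and a single fit of the 24 ureter libraries called 206 and 658, with the same 0 and 1. Without UN 7, edgeR called 1.1% of all genes higher and 2.71% lower, with 0 members among them. The member called by DESeq2 and by the single fit was Col19a1, named after its values were seen, at 0.120, 0.512 and 1.68 CPM in UT and 0.0707, 0.548 and 17.2 CPM in UN, where UN 6 held the 17.2 CPM. In the edgeR comparison Col17a1 had a log2 fold change of 1.47 ± 0.74 (FDR 0.286), Col1a1 1.37 ± 0.66 (FDR 0.273), Col7a1 0.70 ± 0.72 (FDR 0.584), Col3a1 0.25 ± 0.57 (FDR 0.816), Col4a1 0.08 ± 0.38 (FDR 0.914) and Col6a1 0.04 ± 0.39 (FDR 0.967). The ranges of all 37 members overlapped, and 0 collagen genes stood apart, beside 0.0066% of all genes that were higher and 0% that were lower without overlap.

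Within the 7 mice that gave both sides, Col17a1, Col1a2 and Col8a1 were higher in UT in 6 and Col1a1 and Col12a1 in 5. Col17a1 reached 297 CPM in UT against 0.240 CPM in UN of mouse 2, and it was lower in UT only in mouse 7 (43.0 against 135 CPM). Col1a1 was 1090 against 157 CPM in mouse 2 and 117 against 17.6 CPM in mouse 6, but 121 against 155 CPM in mouse 9. Col3a1 was higher in UT in 4 of 7 mice, Col4a1 in 4 and Col6a1 in 3. Col23a1 was lower in UT in 6 of 7 mice, from 13.1 to 0.719 CPM in mouse 1 and from 6.81 to 1.02 CPM in mouse 4, and higher in mouse 6. The mean difference (log2 of CPM + 1, UT minus UN) was 1.301 ± 1.27 (SD, n = 7) for Col1a1, 0.742 ± 0.598 for Col1a2, 1.91 ± 3.03 for Col17a1 and -0.855 ± 1.39 for Col23a1. The spread between mice exceeded the size of the mean for Col17a1 and Col23a1. It did so too for Col8a1 (0.739 ± 1.067), Col12a1 (0.632 ± 1.397), Col3a1, Col4a1, Col6a1 and Col7a1.

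**Figure D4:**
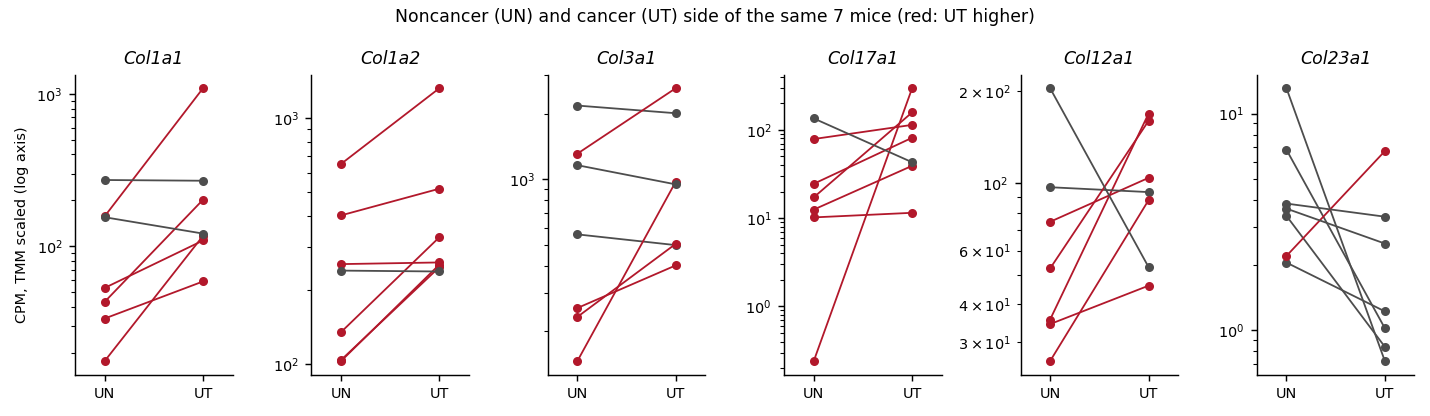
Lines join TMM-scaled CPM (y axis, log scale) of 6 collagen genes in the UN and UT libraries (x axis) of the same mouse, in red where UT was higher. Col1a2 and Col17a1 rose along 6 of 7 lines and Col23a1 fell along 6 of 7.

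BBN bladder was compared with untreated bladder to ask what the carcinogen changed in that organ. Of 43 collagen genes tested, 6 were higher and 16 lower, beside 7.61% and 5.74% of all 18050 genes. The median log2 fold change was -0.36 over these members and 0.25 over all genes, and it was -1.19 and 0.106 without the shallow libraries, -1.07 and 0.003 with voom and -0.692 and 0.169 with RNA integrity as a covariate. Of the 11 fibrillar members 1 was higher and 5 lower, of the 10 basement membrane members 2 were higher and 2 lower, and of 22 other members 3 were higher and 9 lower. CPM ranges did not overlap for 12 members that were lower (beside 11% of all genes) and 3 that were higher (beside 6.64%).

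Col1a1 was 833, 528 and 475 CPM in untreated bladders 1, 2 and 3, and 16.6, 44.3 and 312 CPM (lowest, median, highest) in BBN bladder. All 10 BBN bladders were below all 3 untreated ones, and the log2 fold change was -2.93 ± 0.65 (edgeR FDR 0.0102). Col1a2, its partner in the type I helix, was 1094, 785 and 701 CPM in untreated bladder and 49.1, 135 and 444 CPM in BBN bladder (-2.37 ± 0.50, edgeR FDR 0.00684). Col3a1 was 1824, 1428 and 1186 CPM in untreated bladder and 104, 187 and 1377 CPM in BBN bladder, where BBN bladder 2 stood within the untreated range (-1.99 ± 0.68, edgeR FDR 0.0842). Its call was lost without BBN bladder 1, 4, 5, 6 or 8 or any one untreated bladder (log2 -2.13 to -1.82), without the 3 shallow BBN bladders (-1.64), without the filter on low counts and without scaling.

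Col14a1, the fibril-associated type XIV, was 189, 165 and 153 CPM in untreated bladder and 8.60, 26.1 and 40.6 CPM in BBN bladder, a log2 fold change of -2.64 ± 0.38 (edgeR FDR 0.00048). Col8a2, of type VIII, was 22.3, 9.04 and 15.4 CPM in untreated bladder and 0.616, 1.52 and 3.86 CPM in BBN bladder, and fell by 3.04 ± 0.51 (edgeR FDR 0.00138). Of the type VI genes Col6a1, Col6a2 and Col6a3 fell and Col6a5 rose, with Col6a2 at -2.11 ± 0.49 (edgeR FDR 0.0121) and Col6a1 at -1.96 ± 0.47 (edgeR FDR 0.0157). Col6a1 was 309, 239 and 218 CPM in untreated bladder and 24.5, 50.1 and 155 CPM in BBN bladder. Col4a1 fell by 1.5 ± 0.42 (edgeR FDR 0.0367), from 402, 284 and 388 CPM to 51.8, 88.3 and 250 CPM. The other members called lower were Col4a2, Col5a1, Col5a2, Col6a3, Col8a1, Col12a1, Col16a1 and Col20a1.

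Col7a1 and Col17a1 went against this. Col7a1 was 2.71, 2.32 and 1.93 CPM in untreated bladder and 12.4, 25.2 and 88.2 CPM in BBN bladder, a log2 fold change of 3.90 ± 0.73 (edgeR FDR 0.00299). Col17a1 was 15.6, 16.9 and 20.7 CPM in untreated bladder and 35.1, 139 and 754 CPM in BBN bladder (3.53 ± 0.91, edgeR FDR 0.0226). No BBN bladder overlapped an untreated one in either gene, and BBN bladder 7 was highest in both. Among sparse members, Col13a1, a transmembrane collagen, was 0, 0.0579 and 0.161 CPM in untreated bladder and 0.122, 0.941 and 4.70 CPM in BBN bladder (3.92 ± 1.39, edgeR FDR 0.096). The 4.70 CPM was in shallow BBN bladder 3, and without the 3 shallow libraries the value was 3.06 (edgeR FDR 0.0601). The call was lost without BBN bladder 5, 6 or 9 or any one untreated bladder (log2 3.36 to 4.97), without the filter and without scaling, and BBN bladder 6 is the library whose names differ. Col6a5 was 0.369, 0.637 and 0.214 CPM and 0.547, 1.63 and 11.5 CPM (3.15 ± 1.06, edgeR FDR 0.0814). Its 3 highest values were in the shallow BBN bladders 1, 3 and 4 (6.504, 11.5 and 7.61 CPM), against at most 2.46 CPM in the other 7, and without them the value was 1.87 (edgeR FDR 0.0354). Its call was lost without BBN bladder 4, without any one untreated bladder (log2 2.79 to 3.56) and without the filter.

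Col22a1 and Col2a1 were also called higher, and each had 1 count in the 3 untreated bladders together. Both passed the filter on low counts only through BBN bladder, where they were high. The same holds for Col13a1 and Col6a5, with 4 and 21 counts in the untreated bladders. The direction of these calls, all among the 6 higher, was thus set by the filter. Col22a1 had 113 counts in BBN bladder, a ratio of pooled CPM of 46.7 (exact 95% interval 8.21 to 1860), and Col2a1 had 132 counts, a ratio of 54.5 (9.62 to 2170). These intervals cover counting error only. The highest Col22a1 value was in BBN bladder 4 (9.18 CPM) and the highest Col2a1 value in BBN bladder 3 (4.27 CPM), both shallow libraries. BBN bladder 8, which was not shallow, held 74 of the 132 Col2a1 counts, and without it the ratio was 27.6 (4.76 to 1110). Without BBN bladder 4 and its 41 counts the ratio of Col22a1 was 32 (5.56 to 1280). Without the 3 shallow BBN bladders, 4 of 36 members were higher and 18 lower, beside 11.3% and 9.02% of all genes. Leaving out any single untreated bladder left 1 member called higher, Col7a1, with Col17a1 at log2 3.44 to 3.65, and 6 members lower without untreated bladder 1, 11 without 2 and 8 without 3, beside 2.74% to 2.80% higher and 2.57% to 2.77% lower of all genes in these fits. Calls of Col1a1, Col1a2, Col6a2, Col8a2 and Col14a1 were kept in all 3 of these fits, that of Col4a1 was lost without untreated bladder 1 or 3, and that of Col6a1 without untreated bladder 1.

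Markers of other cells moved in the same contrast. In BBN bladder 4 of 5 urothelial markers were lower, with sums of 729 to 2929 CPM against 13233 to 13640 CPM in untreated bladder. Smooth muscle markers summed to 1228 to 7896 CPM against 6884 to 8227 CPM, with 0 of 5 called, and fibroblast markers to 454 to 2112 CPM against 2245 to 2928 CPM, with 1 of 5 called lower. Endothelial markers summed to 20.1 to 160 CPM against 115 to 161 CPM, with Kdr called lower (log2 -1.34 ± 0.42, edgeR FDR 0.0619) of 4 that were all negative. None of the 15 urothelial, smooth muscle and fibroblast markers was at 0 in any bladder. The part of these cells in the collagen differences was not tested.

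U was compared with untreated bladder, which came from the same 3 mice, to ask how the collagen genes differ between both organs without BBN. Of 37 members tested, 9 were higher in U and 12 lower, beside 15.7% and 14.3% of all 15318 genes. The median log2 fold change was -0.46 over these members and -0.022 over all genes. Without TMM scaling, an alternative chosen after seeing the data, 6 were higher and 17 lower, beside 10.7% and 22.1% of all genes. CPM ranges did not overlap for 7 members that were higher (beside 24.1% of all genes) and 17 that were lower (beside 31.8%).

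Col23a1 was 27.2, 50.9 and 53.4 CPM in U and 2.21, 2.55 and 1.82 CPM in untreated bladders 1, 2 and 3, a log2 fold change of 4.51 ± 0.25 (edgeR FDR 4.93e-08). The minor type VI chains were also higher in U, with Col6a5 at 4.12 ± 0.58 (edgeR FDR 6.31e-05), Col6a6 at 3.65 ± 0.58 (edgeR FDR 0.000167) and Col6a4 called as well. Col13a1 was higher by 3.99 ± 0.61 (edgeR FDR 0.000126) and Col5a3, a minor fibril chain, by 3.01 ± 0.39 (edgeR FDR 3.03e-05). Col7a1 was higher by 1.15 ± 0.33 (edgeR FDR 0.00963), with overlapping ranges, and was not called without TMM scaling (0.78), with RNA integrity as a covariate (0.75) or in the fit of all 37 libraries (edgeR FDR 0.536). Col28a1 and Col15a1 completed the 9.

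Col25a1, a transmembrane collagen, was lowest in U relative to bladder, at 0.0701, 0.536 and 1.38 CPM in U and 16.5, 11.9 and 15.997 CPM in untreated bladder (-4.55 ± 0.42, edgeR FDR 1.91e-06). Col17a1 was lower by 3.26 ± 0.18 (edgeR FDR 5.1e-08), with no U library above 2.13 CPM and no bladder under 15.6 CPM. Both type VIII genes were lower, Col8a2 by 2.97 ± 0.44 (edgeR FDR 9.2e-05) and Col8a1 by 2.70 ± 0.18 (edgeR FDR 1.52e-07). Col1a1 had a log2 fold change of -2.44 ± 0.38 (edgeR FDR 0.00015), Col1a2 of -2.06 ± 0.27 (edgeR FDR 3.21e-05) and Col12a1 of -2.19 ± 0.22 (edgeR FDR 4.26e-06). Col11a1 and Col4a6 were lower by 2.40 ± 0.41 and 2.31 ± 0.39 (edgeR FDR 0.000291 and 0.000273) and were not called in the fit of all 37 libraries (edgeR FDR 0.155 and 0.116), and Col24a1, Col4a5 and Col14a1 were the rest of the 12.

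Col3a1 had a log2 fold change of -0.91 ± 0.29 (edgeR FDR 0.0171) and fell short of the fold threshold, which it passed with RNA integrity as a covariate (-1.06), without scaling (-1.27), without U 2R (-1.03) and without untreated bladder 3 (-1.05). Col6a1 was at -0.59 ± 0.26 (edgeR FDR 0.07) and Col4a1 at 0.04 ± 0.31 (edgeR FDR 0.913). Of the markers, all 5 of urothelium and 4 of 5 of smooth muscle were lower in U, and all 4 of adipocytes and 3 of 4 of endothelium were higher. Of 5 fibroblast markers, Dpt was higher (1.05 ± 0.22, edgeR FDR 0.00144) and Pi16 lower (-1.68 ± 0.24, edgeR FDR 7.12e-05). Acta1 of skeletal muscle was lower (-5.42 ± 0.49, edgeR FDR 1.59e-06). Their part in the collagen differences was not tested.

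The difference with BBN was then compared between the organs, as UN minus U against BBN bladder minus untreated bladder in 1 fit of these 4 groups. At an edgeR FDR under 0.1, 5 of 43 collagen genes had a positive difference and 1 a negative one, beside 1.52% and 0.548% of all 18786 genes. All 5 urothelial markers were positive in the same contrast (median 3.21), with Upk2 called at 3.81 ± 0.90 (edgeR FDR 0.027), and all 5 fibroblast markers were positive with 0 called (median 1.40). Their part in the collagen differences was not tested. The median over the members was 0.84 on the log2 scale, and over all genes -0.099. With the mouse as a replicate block, a fit chosen after seeing the data, 8 were positive and 3 negative, beside 2.35% and 1.15% of all genes. The calls of all 6 members were kept in it, and Col1a1, Col6a1, Col5a2, Col13a1 and Col22a1 were the others, of which the last 3 are named after their values were seen.

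Col8a2 (3.93 ± 0.75, edgeR FDR 0.00586), Col8a1 (3.27 ± 0.64, edgeR FDR 0.00647) and Col12a1 (3.04 ± 0.61, edgeR FDR 0.00853) had the highest positive values among the members called. Col1a2 (2.83 ± 0.68, edgeR FDR 0.0312) and Col14a1 (2.66 ± 0.58, edgeR FDR 0.0174) followed. Col8a1 and Col12a1 were called higher in UN than in U and lower in BBN than in untreated bladder. Col23a1 had the negative difference (-3.66 ± 0.81, edgeR FDR 0.0189). Without untreated bladder 3 the call of Col23a1 was lost (log2 -3.52), and without untreated bladder 1 that of Col1a2 (2.64).

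Col1a1 was at 2.88 ± 0.93 and was not called (edgeR FDR 0.145), but it was called by DESeq2 (2.81), without BBN bladder 2 (3.43), without UN 6 (3.07), without the 4 shallow libraries (2.70) and with the mouse as a block (2.76, edgeR FDR 0.0323). Col3a1 was at 2.13 ± 0.93 (edgeR FDR 0.346), Col6a1 at 1.41 ± 0.67 (edgeR FDR 0.402, and 1.59 with FDR 0.0927 with the block) and Col4a1 at 1.02 ± 0.60 (edgeR FDR 0.521). For the epithelial pair, Col17a1 was at 0.97 ± 1.11 (edgeR FDR 0.764) and Col7a1 at -2.12 ± 1.09 (edgeR FDR 0.456), so neither was shown to differ between the organs.

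**Figure D5:**
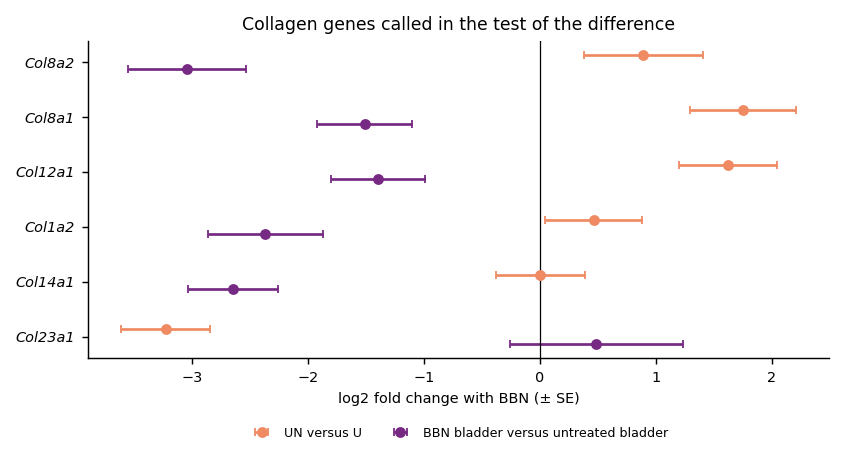
Points show the edgeR log2 fold change with BBN (x axis, bars ± SE) of the 6 collagen genes whose difference between organs was called (y axis), in UN against U (orange) and in BBN against untreated bladder (purple). The orange point lies to the right of the purple one for Col8a2, Col8a1, Col12a1, Col1a2 and Col14a1 and to the left for Col23a1.

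Collagen chains need hydroxylases, chaperones, propeptide proteases and cross-linking enzymes, and a list of 30 such genes was read beside the members. In UT against U, 3 of 29 tested were higher and 3 lower, beside 18.7% and 12.5% of all genes. P4ha3, a prolyl hydroxylase subunit, rose by 3.73 ± 0.73 (edgeR FDR 0.000517), and the cross-linking oxidases Lox and Loxl4 rose by 1.56 ± 0.44 (edgeR FDR 0.00753) and 1.33 ± 0.39 (edgeR FDR 0.00883). Colgalt2, P4ha1 and Serpinh1, the last a collagen chaperone, fell by 1.23 ± 0.53, 1.13 ± 0.37 and 1.09 ± 0.37 (edgeR FDR 0.0591, 0.0171 and 0.0218). In UN against U, 1 of 28 was higher (Loxl2) and 1 lower (P4ha1), beside 10.5% and 2.54%. In UT against UN, edgeR called 0 of 29.

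In BBN against untreated bladder, 0 of 29 synthesis genes were higher and 5 lower, beside 7.61% and 5.74% of all genes. These were Pcolce2 (-1.74 ± 0.39), which enhances propeptide cleavage, P3h2, Plod1, Adamts2 and P3h3 (-1.27 ± 0.36), with edgeR FDR of 0.0101 to 0.0958. In U against untreated bladder 4 of 29 were higher (Lox, P4ha2, Adamts14 and P4ha1) and 2 lower, beside 15.7% and 14.3%, with P4ha3 at -3.90 ± 0.38 (edgeR FDR 2.82e-06). The difference between organs was called for P4ha3 (3.88 ± 0.91, edgeR FDR 0.0265) and Pcolce2 (2.02 ± 0.58, edgeR FDR 0.0883) of 30, beside 1.52% of all genes.

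Collagen receptors were read in the same way from a list of 10. In UT against U, 2 of 9 tested were higher, the integrin chain Itga2 by 2.85 ± 0.63 (edgeR FDR 0.00144) and the leukocyte receptor Lair1 by 1.5 ± 0.42 (edgeR FDR 0.00641), and 3 were lower (Itga1, Itga10 and Ddr2), beside 18.7% and 12.5% of all genes. In BBN bladder 0 of 9 were higher and 3 lower, with Itga11 at -2.77 ± 0.80 (edgeR FDR 0.0408), and Itga1 and Ddr2 the others, beside 7.61% and 5.74%. In UN against U 1 of 9 was higher (Lair1), beside 10.5%, and in U against untreated bladder 1 was higher (Itga10) and 2 lower (Itga2 and Ddr1), beside 15.7% and 14.3%.

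Across the 37 libraries, partner chains of 1 helix had Pearson correlations of log2(CPM + 1) of 0.921 (Col1a1 and Col1a2), 0.958 (Col4a1 and Col4a2), 0.936 (Col4a3 and Col4a4), 0.974 (Col6a1 and Col6a2) and 0.447 (Col4a5 and Col4a6). Within groups of at least 6 libraries, Col4a3 and Col4a4 were at -0.127 in U and at 0.90 to 0.978 in the others. UT 4 held 94.8 CPM of Col4a3 and 34.3 CPM of Col4a4, the highest in UT. The shallow UN 6 and BBN bladders 1, 3 and 4 held the highest values of both genes in their groups. The correlations of this pair, also over all libraries, may rest on these libraries and were not computed without them. Col4a5 and Col4a6 ranged from -0.501 in BBN bladder to 0.807 in UT. Col1a1 and Col17a1 stood at 0.039 over all libraries. These are descriptions, since the points share groups and mice. Col4a1 and Col4a2 lie head to head on chromosome 8, with annotated starts at 11312826 on the minus strand and 11312805 on the plus strand, and the sources used here do not state whether counting used strand.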

How the data were processed

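WTS libraries (SMARTerHT and Nextera XT) of 37 tissue samples were processed by the authors, and the submitters' processing notes name TopHat2 2.1.1, Cuffdiff 2.2.1 and GRCm38 (mm10). The authors deposited estimated counts per gene, which were rounded here. How reads shared between genes were assigned could move counts of similar or overlapping genes. Each of the 37 columns was matched to a sample by its name, and 0 were left over. Totals were 3557553 to 18793434 counts. Groups came from the labels.

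Comparisons of 2 groups used edgeR 4.0.16 (R 4.3.3) with TMM, filterByExpr and the quasi-likelihood test on those groups alone, and Benjamini-Hochberg adjustment over all genes tested (FDR). A call needed a factor of 2 or more with FDR below 0.1, and FDR below 0.1 alone for the difference between organs. A gene with too few counts for the filter in 1 group was tested only through the other, so a call in the opposite direction was hardly possible. Alternatives were DESeq2 1.42.0, limma 3.58.1 (voom), RLE factors, no filter, joint fits, RNA integrity or mouse as a term, sums per mouse and fits without libraries. No scaling factors, the 14 paired libraries without the mouse term, and the mouse term in the difference between organs were added after seeing the data. In simulated data with 200 genes changed 4-fold, edgeR recovered 82.5% in UT against U and 88% in UN against U. It recovered 78% in UT against UN, 20% in BBN bladder and 94% in U against untreated bladder. False calls were 10 with edgeR and 37 with DESeq2 in UN against U, and 3 and 148 in BBN bladder. The simulated libraries were independent, and both groups had the same spread for a gene. In the data the common dispersion was 0.356 in BBN bladder and 0.0211 in untreated bladder, and U holds both sides of 3 mice. The simulation does not cover these features.

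The members and lists (synthesis, receptors, and markers of fibroblasts, smooth muscle, urothelium, endothelium, leukocytes, adipocytes, kidney tubule and skeletal muscle) were chosen with earlier results of these data known. Named were Col1a1, Col3a1, Col4a1, Col6a1, Col7a1 and Col17a1 in each comparison, up to 12 called members by absolute log2 fold change, and called genes of the synthesis and receptor lists. Same-numbered UT and UN libraries come from 1 mouse (7 pairs). The correlations of their deviations from the group means were -0.085 to 0.524 (median -0.018), against 0.003 for other pairs. For U and untreated bladder (6 pairs) they were -0.117 to 0.087, and for UN and BBN bladder (7 pairs of 1 mouse) -0.306 to 0.607.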

Additional observations from a re-analysis of the deposited data

Results flagged for a closer look

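In 78 groups of values tested, 12 held a library far from the others, and chance alone flags about 1 in 20. U 3L was low in log2(CPM + 1) of Col1a1 (4.69, nearest 6.78), Col1a2 (6.36, nearest 7.66), Col20a1 (1.25, nearest 2.52), Col23a1 (4.82, nearest 5.67), Col4a1 (6.87, nearest 8.53) and Col6a2 (4.82, nearest 6.28), and its collagen share was 0.08% of counts (nearest 0.22%). UN 6, 1 of the 4 shallow libraries, was high in Col19a1 (4.19, nearest 1.82) and Col25a1 (3.66, nearest 0.97). UN 9 was high in Col5a3 (6.32, nearest 4.14). U 2R was high in Col2a1 (0.29, nearest 0.1), a gene with 5 counts in U. BBN bladder 2 had a collagen share of 0.46% (nearest 0.23%).

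The difference with BBN differed between ureter and bladder by the test of that difference for Col8a2 (3.93), Col8a1 (3.27), Col12a1 (3.04), Col1a2 (2.83), Col14a1 (2.66) and Col23a1 (-3.66), all on the log2 scale as ureter minus bladder.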

How the results depend on the processing

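In UT against U the count of members called higher was 5 with voom (beside 16.4% of all genes), 4 with RNA integrity as a covariate (15.8%), 4 with 1 sum per mouse (15.3%) and 11 without scaling (24.9%), and of those lower 7 with DESeq2 (13.8%), 8 with voom (15.9%) and 9 without BBN mice 8 to 10 (14.7%). In UN against U it was 0 higher with 1 sum per mouse (0.0128%). Lower were 2 with DESeq2 (3.15%), 5 with voom (6.33%) and 3 without BBN mice 8 to 10 (4.65%). Without UN 6, the shallow library of this comparison, 4 were lower (3.68%). In UT against UN, DESeq2 and the fit of 24 ureter libraries each called 1 lower, beside 2.74% and 4.2% of all genes. DESeq2 called 12 higher in BBN bladder, beside 25.7% of all genes. The difference between organs was positive for 8 and negative for 3 without the 4 shallow libraries (4.46% and 2.32% of all genes), and negative for 3 with DESeq2 (2.61%). Leaving out 1 library gave 6 to 8 higher and 4 to 6 lower in UT against U (17.6% to 18.9% and 11.8% to 14.2% of all genes), 4 to 5 and 1 to 4 in UN against U (7.47% to 12.2% and 1.47% to 4.65%), 1 to 6 and 6 to 16 in BBN bladder (2.74% to 9.41% and 2.57% to 6.68%), 9 to 10 and 12 to 14 in U against untreated bladder (15.1% to 16.2% and 13.8% to 14.5%), and 4 to 7 positive and 0 to 3 negative between organs (0.62% to 2.3% and 0.101% to 0.982%). The cause was not tested. With mouse as a replicate block, 0 and 0 members were called in UT against UN, beside 0% and 0% of all genes. In U against untreated bladder 9 and 12 were called, beside 15.6% and 14.4%. The calls of named members were as before in both comparisons. In the difference between organs the block gave 8 positive and 3 negative members, beside 2.35% and 1.15% of all genes.

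Values that changed sign belonged to genes not called. Col1a1 in UN against U was 0.0907 without scaling and 0.1206 without the shallow UN 6 (-0.4781 to 0.1206 leaving out 1 library). Col3a1 in UN against U was -0.4071 with voom (-0.3113 to 0.3191 leaving out 1). In UT against UN with RNA integrity, Col3a1 was -0.0104, Col4a1 -0.012, Col6a1 -0.0031 and Col7a1 -0.6461. Col4a1 there was -0.0352 without BBN mice 8 to 10, -0.0094 without UT 9 and -0.0264 without the shallow UN 6. Col6a1 was -0.0839 without UT 9 and -0.119 without UN 6. Leaving out 1 gave -0.0054 to 0.7118 for Col3a1, -0.0645 to 0.3152 for Col4a1 and -0.119 to 0.3522 for Col6a1. Col4a1 in U against untreated bladder was -0.0267 in a fit of all 37 libraries, -0.0603 with voom, -0.324 without scaling, -0.0592 with RNA integrity and -0.0053 with the mouse as a replicate block (-0.0892 to 0.2264 leaving out 1). Of the other values, 1700 kept direction and side of the threshold, 82 lost the call and 16 gained one. Members with few counts, such as Col2a1, are limited by depth.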
